A study of Mus musculus with 8 samples.

Results

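Gas5, Snhg1, Snhg3, Snhg5, Snhg6, Snhg8 and Snhg12 are spliced RNAs that carry small nucleolar RNAs (snoRNAs) in their introns and code for no known protein of their own. They were chosen by symbol, as noncoding snoRNA hosts known to be cleared by nonsense-mediated decay, and 6 of the 7 were found among 38991 gene identifiers in the deposited values. Snhg8 was not analysed here. RNA-seq measured them in 8 libraries of male C57BL/6 mouse embryonic stem cells, derived from blastocysts of embryonic day 3.5 and held in 2i ground state medium, below passage 20. Of these libraries, 4 were iPHet, the control, and 4 were iPKO, the knockout of Prmt5. The label iPHet reads as heterozygous for Prmt5, so the control may not be intact at that locus. Prmt5 encodes the arginine methyltransferase that modifies Sm proteins of the spliceosome. Cells of both genotypes received 2 µM 4-hydroxytamoxifen over 48 hours, which induces the deletion at the Prmt5 locus. The labels name the lines PC1 (iPHet) and PC4 (iPKO) for most of the work, so that genotype and line cannot be told apart. The lines were derived on fibroblast feeders with 0.5 µM of the MEK inhibitor PD0325901 and LIF. The labels do not say that libraries of a genotype were separate cultures, so p-values cover only how these libraries differ among themselves, and that spread may be technical.

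A snoRNA host is transcribed and spliced like a messenger RNA. The introns are debranched and trimmed to snoRNAs, which guide chemical modification of ribosomal RNA, while the spliced exons are exported and engaged by ribosomes. Translation soon meets a stop codon far upstream of the remaining exon junctions, and the exon junction complexes left downstream mark the RNA for nonsense-mediated decay (NMD), in which UPF1 and SMG proteins trigger degradation. The level of the spliced host therefore depends on both transcription and decay, and it is no measure of the snoRNAs. Many hosts belong, with the messenger RNAs of ribosomal proteins, to the class that starts with a run of pyrimidines (C or T) at the 5′ end, the TOP class, whose translation responds to growth signals.

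Promoter windows are shown because snoRNA hosts are known for that kind of start. Each runs from 45 bases before to 30 bases from an annotated start site, 5′ to 3′ on the strand of the gene, from RefSeq promoters of build GRCm38.p6. Of the 6 hosts, 5 matched by symbol, with Gas5 at both of its start sites. Capitals mark the longest run of C and T beginning with C within 10 bases of the start.
Gas5 site 1 (chr1:161034556-161034630, plus strand): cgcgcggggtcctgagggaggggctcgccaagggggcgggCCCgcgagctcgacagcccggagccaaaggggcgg
Gas5 site 2 (chr1:161035121-161035195, plus strand): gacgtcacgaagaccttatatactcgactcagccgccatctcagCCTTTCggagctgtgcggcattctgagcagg
Snhg1 (chr19:8723442-8723516, plus strand): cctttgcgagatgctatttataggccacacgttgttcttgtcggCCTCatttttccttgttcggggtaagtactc
Snhg3 (chr4:132353657-132353731, minus strand): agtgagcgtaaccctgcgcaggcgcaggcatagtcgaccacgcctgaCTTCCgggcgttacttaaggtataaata
Snhg5 (chr9:88522868-88522942, minus strand): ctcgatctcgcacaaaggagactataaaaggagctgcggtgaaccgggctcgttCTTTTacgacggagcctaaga
Snhg12 (chr4:132308633-132308707, plus strand): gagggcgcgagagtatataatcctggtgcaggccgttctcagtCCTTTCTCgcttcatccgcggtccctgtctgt

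A run of at least 5 such bases was present in 4 of the 6 windows (66.7%), against 30.7% of 32841 RefSeq promoters and 54.4% of 68 promoters of ribosomal protein genes. Those of Snhg3 and Snhg5 began 2 and 9 bases after the annotated start, inside the transcript, and that of Gas5 site 2 began 1 base before it. The longest was CCTTTCTC at Snhg12, of 8 bases, beginning 2 bases before the annotated start. Read on the opposite strand, such a run was present in 16.7% of the hosts' windows and 34.9% of all promoters. The letters TATA, which read the same on both strands, began between 40 and 20 bases before the start in 4 of the 6 windows (66.7%) and in 5.81% of all promoters. The share was 8.82% for ribosomal protein genes. These letter matches are descriptions of the windows and were not tested as sites.

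The features that expose a host to decay were read from GENCODE vM21 transcripts, taking for each gene the transcript with the most exons. Gas5 had 12 exons and 10 snoRNAs spread over 9 of its 11 introns. Snhg1 carried 8 snoRNAs in 8 of 9 introns, and Snhg12 carried 5 in all 4 of its introns. Snhg3 had 2 snoRNAs in 3 introns, Snhg5 had 2 in 5 introns, and Snhg6 had 1 in 3 introns. The first open reading frame, from the first ATG with a stop codon in frame, was 72 bases long in Gas5, 111 in Snhg5, 123 in Snhg1, 129 in Snhg3, 162 in Snhg6 and 165 in Snhg12. After its stop, junctions more than 50 bases downstream numbered 7 in Gas5, 5 in Snhg1, 3 in Snhg12, 2 in Snhg5 and 1 each in Snhg3 and Snhg6. Such a downstream junction is the textbook mark of an NMD substrate. Over all spliced transcripts of these hosts, 59 of 69 (85.5%) had one, compared with 72.6% of 14140 other spliced long noncoding transcripts. Gas5 (24 of 25) and Snhg1 (15 of 18) supplied most of these, while in Snhg3 only 2 of 5 transcripts had one. Many of the Gas5 and Snhg1 transcripts are annotated as retaining an intron. The hosts' transcripts had a median of 4 exons, against 3 for the other noncoding transcripts, and the shares do not allow for that. The frames of Gas5 and Snhg12, the most abundant host and the one with the largest difference between genotypes, are given with the start and stop codons in capitals.
Gas5 first open reading frame: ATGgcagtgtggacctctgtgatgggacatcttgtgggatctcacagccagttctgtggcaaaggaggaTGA
Snhg12 first open reading frame: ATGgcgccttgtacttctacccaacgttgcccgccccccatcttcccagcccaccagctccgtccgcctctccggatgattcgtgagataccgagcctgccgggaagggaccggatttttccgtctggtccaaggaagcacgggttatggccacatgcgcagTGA

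Summed FPKM (fragments scaled to transcript length and library size) was 458856 and 458690 in iPHet 1 and 3, which stood apart, and 411827 to 421412 in the other 6 libraries. The hosts other than Snhg5, and the summed ribosomal protein genes, were also higher in iPHet 1 and 3 than in iPHet 2 and 4, and the part of the totals in the results was not tested beyond the scalings given with them. Between 11640 and 12099 genes had at least 1 FPKM, and the absolute depth is unknown. All 8 embryonic stem cell markers were present, with gene means of 39.8 to 1480 FPKM. Of these, Sox2 was called lower, from 91.8 FPKM in controls to 70.1 FPKM in knockouts (limma adjusted p = 0.00539), and the other 7 were not called. Pou5f1 (even minus odd difference 0.60, limma adjusted p = 0.00124) and Dppa5a (1.05, limma adjusted p = 0.00038) were lower in iPKO in odd and higher in even libraries. Tfcp2l1 went the other way (-0.25, limma adjusted p = 0.0127). Sox2 (0.21, limma adjusted p = 0.0187) was lower in iPKO in both sets, and 4 of the 8 markers were not called in that difference. Of 8 feeder fibroblast markers, 6 stayed under 1 FPKM in all libraries, Lum and Postn among them at a listed 0. The other 2 were Thy1, at 0.902 to 1.68 FPKM, and Pdgfrb, at most 3.45 FPKM. Pdgfrb averaged 1.79 FPKM in odd and 0.492 FPKM in even iPHet libraries, and 3.25 and 0.521 FPKM in iPKO. The summed level of that list was 2.01 to 3.45 FPKM in iPHet and 1.91 to 4.56 FPKM in iPKO. Prmt5 itself fell from a control mean of 62.5 ± 10.4 (SD, n = 4) to 13.4 ± 1.56 FPKM (SD, n = 4), a log2 change of -2.13 (SE 0.13, limma adjusted p = 0.000171, exact permutation p = 0.0286, the smallest that 4 against 4 allows). It was lower in both the odd-numbered and the even-numbered libraries. Within a genotype, libraries 1 and 3 and libraries 2 and 4 lay close together, with an SD of the log2 difference over tested genes of 0.305 to 0.409, against 0.573 to 0.66 between an odd-numbered and an even-numbered library. The labels give no reason for this, and the odd and even numbers are used below only as the titles give them.

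The hosts covered a wide range of abundance. Gas5 was the highest, above 98.5% of tested protein-coding genes, followed by Snhg5, above 93.0%. Snhg12, Snhg6 and Snhg1 came next, above 82.4%, 77.1% and 75.7%, and their ranges in iPHet overlapped. Snhg3 was the lowest, above 19.3%. FPKM is scaled to length, so that these levels can be set side by side. In bulk RNA a lower level in each cell and fewer cells with the RNA cannot be told apart.

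**Figure D1:**
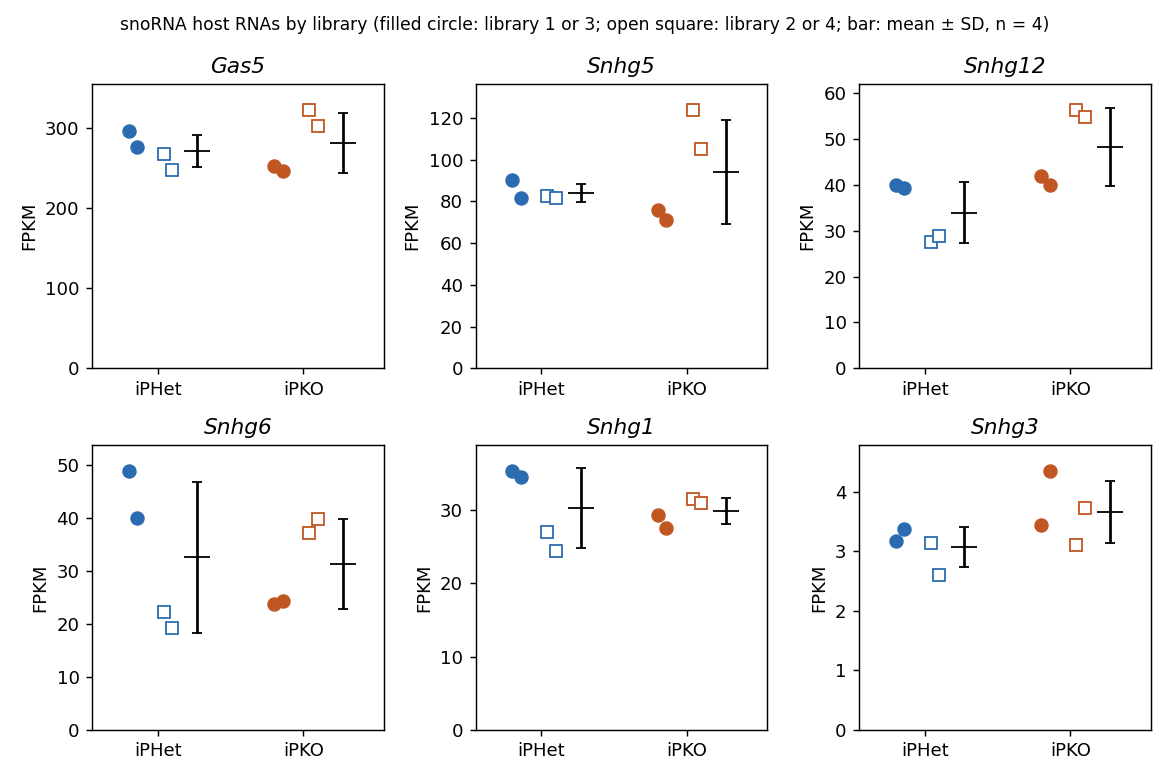
FPKM of the 6 hosts in each of the 8 libraries. Filled circles are libraries 1 and 3, open squares are libraries 2 and 4, and bars give the mean and SD over 4 libraries of a genotype. The iPHet circles sit above the iPKO circles for Gas5, Snhg5, Snhg6 and Snhg1, and the iPHet squares sit below the iPKO squares for the same genes.

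Taken over all 8 libraries, none of the hosts passed the test between genotypes. By limma with an adjusted p under 0.05, 0 of 6 were called, with 1 (Snhg12) at an unadjusted p under 0.05. Over all 12462 tested genes 15.8% were called, 785 in the higher direction and 1188 in the lower. Quantile normalization called 936 higher and 946 lower, and scaling by medians of ratios 959 higher and 846 lower. With the replicate number as a block, 3427 genes were called, and again none of the hosts. With libraries 1 and 3, and 2 and 4, of a genotype treated as correlated (correlation estimated by limma) 52 genes were called, and with each pair averaged 7. The groups overlapped for all 6 hosts, while they did not overlap for 25.1% of tested genes. The median log2 change of the hosts was 0.08, beside -0.04 over all tested genes.

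Gas5, first described as a transcript enriched in growth-arrested cells and a host of box C/D snoRNAs (ENSMUSG00000053332, chromosome 1, 161034422 to 161038539 of mm10), stood at 296, 267, 276 and 248 FPKM in iPHet libraries 1 to 4. In iPKO libraries 1 to 4 it stood at 253, 323, 246 and 302 FPKM. The highest values were in iPKO 2 and 4, above every control, and the lowest was in iPKO 3, just under iPHet 4. The means were 272 ± 20.0 FPKM (SD, n = 4) and 281 ± 37.2 FPKM (SD, n = 4), with a log2 change of 0.04 (SE 0.11, limma adjusted p = 0.828).

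Snhg1, host of Snord22 and its neighbours (ENSMUSG00000097188, chromosome 19, 8723496 to 8726442), was at 35.4, 27.0, 34.6 and 24.4 FPKM in iPHet and at 29.4, 31.5, 27.6 and 31.0 FPKM in iPKO. Here the control was the more spread out, with iPHet 1 and 3 above and iPHet 2 and 4 below every iPKO library. The log2 change was -0.01 (SE 0.12, limma adjusted p = 0.977).

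Snhg5, host of the Snord50 pair (ENSMUSG00000097195, chromosome 9, 88521052 to 88522929), was at 90.4, 82.7, 81.8 and 81.4 FPKM in iPHet and at 76.0, 124, 71.1 and 105 FPKM in iPKO. The 4 controls were nearly level, and the knockout libraries lay below them (1 and 3) or above them (2 and 4). The spread was 4.25 FPKM (SD) over the controls but 24.8 FPKM over the knockouts. The log2 change of 0.12 was smaller than its SE of 0.17 (limma adjusted p = 0.669).

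Snhg6, host of Snord87 (ENSMUSG00000098234, chromosome 1, 9941959 to 9944118), was at 48.8, 22.1, 40.0 and 19.2 FPKM in iPHet and at 23.7, 37.1, 24.2 and 39.8 FPKM in iPKO. Its values fell into a high and a low set in each genotype, made of opposite library numbers. The high libraries were iPHet 1 and 3 and iPKO 2 and 4. The means, 32.6 ± 14.2 FPKM (SD, n = 4) and 31.2 ± 8.45 FPKM (SD, n = 4), differed by less than that spread (log2 change 0.00, SE 0.32, limma adjusted p = 0.994).

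Snhg12, host of Snora44, Snora61, Snora16a and Snord99 (ENSMUSG00000086290, chromosome 4, 132308678 to 132311024), was at 40.0, 27.5, 39.3 and 28.9 FPKM in iPHet. In iPKO it was at 41.9, 56.5, 40.0 and 54.8 FPKM. The groups touched, with iPHet 1 above iPKO 3 by 0.006 FPKM. It went from a control mean of 33.9 ± 6.63 (SD, n = 4) to 48.3 ± 8.54 FPKM (SD, n = 4), a ratio of 1.42. On the log2 scale the difference was 0.50 (SE 0.17, limma adjusted p = 0.0778, unadjusted p = 0.0164, exact permutation p = 0.0571), the largest among the 6 and short of the threshold. Quantile normalization gave 0.54 with an adjusted p of 0.0499 by limma, on the other side of the threshold.

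Snhg3, host of Snora73a and Snora73b (ENSMUSG00000085241, chromosome 4, 132348014 to 132353686), was low throughout, at 3.18, 3.13, 3.37 and 2.60 FPKM in iPHet and 3.44, 3.11, 4.35 and 3.73 FPKM in iPKO. The iPKO libraries were above every iPHet library except for iPKO 2. The log2 change was 0.19 (SE 0.11, limma adjusted p = 0.258), which log2(FPKM + 1) understates at such a level.

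Within the odd-numbered and even-numbered libraries, the same genes gave opposite differences. In libraries 1 and 3, Gas5, Snhg1, Snhg5 and Snhg6 were lower in iPKO than in iPHet with no overlap. In libraries 2 and 4 the same 4 genes were higher in iPKO with no overlap. Among all tested genes, 9.4% had this arrangement, and 7.12% had its mirror image.

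**Figure D2:**
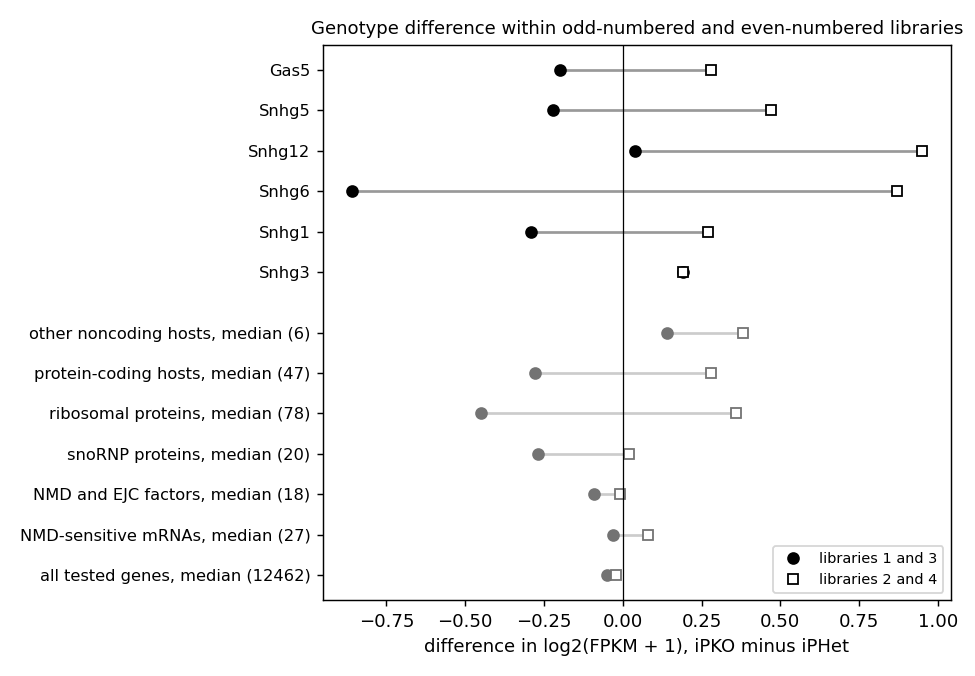
Difference between genotypes in log2(FPKM + 1), iPKO minus iPHet, within libraries 1 and 3 (filled circles) and within libraries 2 and 4 (open squares), for each host and as the median of each gene list (number of tested genes in brackets). Gas5, Snhg5, Snhg6, Snhg1 and the ribosomal protein genes are among those that cross 0, whereas both marks of Snhg3 lie at 0.19.

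Fitted alone, the odd libraries called 3 hosts, Gas5, Snhg1 and Snhg6, lower in iPKO, where 45.4% of tested genes were called and 27.3% called lower. The even libraries alone called 5, all but Snhg3, higher, where 40.2% were called and 17.7% called higher.

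Snhg6 had the widest swing. Its mean was 44.4 FPKM in odd iPHet libraries and 24.0 FPKM in odd iPKO libraries, a log2 change of -0.86. In even libraries the mean was 20.7 FPKM in controls and 38.5 FPKM in knockouts, a log2 change of 0.87. The genotype difference was thus of almost equal size in both sets and opposite in sign. The difference between the 2 sets, even minus odd, was 1.72 (SE 0.15, adjusted p = 0.00119) in a limma fit with an interaction term that was chosen after these values were seen.

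Snhg12 differed from that pattern. In odd libraries it was level, at 39.7 FPKM in iPHet and 40.9 FPKM in iPKO. In even libraries it went from 28.2 FPKM to 55.6 FPKM, a ratio of 1.97. The even minus odd difference was 0.91 (SE 0.06, limma adjusted p = 0.000436). Its difference between genotypes thus lay almost wholly in libraries 2 and 4, where iPHet was low and iPKO high.

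Gas5, Snhg1 and Snhg5 moved less. Gas5 went from 286 to 250 FPKM in odd libraries and from 258 to 312 FPKM in even ones, with an even minus odd difference of 0.47 (SE 0.08, limma adjusted p = 0.00892). For Snhg1 the odd means were 35.0 (control) and 28.5 FPKM (knockout), and the even means 25.7 and 31.2 FPKM, a difference of 0.56 (SE 0.08, limma adjusted p = 0.00512). For Snhg5 the odd means were 86.1 and 73.6 FPKM and the even means 82.0 and 114 FPKM, a difference of 0.69 (SE 0.12, limma adjusted p = 0.0107). All 3 were thus lower in iPKO in odd and higher in even libraries, like Snhg6, with smaller differences. The order of the means was not the same in all 3. In Gas5 and Snhg5 the even iPKO mean was the highest and the odd iPKO mean the lowest. In Snhg1 and Snhg6 the highest and lowest means were those of odd and even iPHet libraries.

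Snhg3 showed no such split, though at its low level one could be missed. It was higher in iPKO by 0.19 on the log2 scale in odd and in even libraries alike, and its even minus odd difference was 0.00 (SE 0.17, limma adjusted p = 0.992). Altogether 5 of the 6 hosts were called higher in the even minus odd difference and 0 lower. Over all tested genes 15.6% were called higher and 12.9% lower. Under quantile normalization the value of Gas5 was 0.24 with a limma adjusted p of 0.0709, and the other 4 calls held. Quantile normalization split the calls over all genes into 1606 higher and 2061 lower, compared with 1948 higher and 1608 lower here. The p-values of this fit rest on the spread inside pairs of closely similar libraries. If each such pair is 1 culture, the design holds 1 sample for each genotype and number set, and the difference then has no replicate check.

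The genotype difference of the knockout gene did not follow the split, although its level differed between the sets. The mean of Prmt5 was 53.5 FPKM in odd and 71.5 FPKM in even iPHet libraries. In iPKO the odd and even means were 12.1 and 14.7 FPKM. Prmt5 had an even minus odd difference of -0.15 (limma adjusted p = 0.101), with log2 changes of -2.06 in odd and -2.20 in even libraries.

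The messenger RNAs of cytosolic ribosomal proteins, the main TOP class, showed the hosts' arrangement more fully. Of 78 tested, 0 were called between genotypes over all libraries (limma), with 1 at an unadjusted p under 0.05 and a median log2 change of -0.05. Within odd libraries their median was -0.45, and within even libraries 0.36. In the even minus odd difference 73 of 78 were called higher and 0 lower, against 15.6% of all tested genes, and 68 were lower in odd and higher in even libraries with no overlap. Quantile normalization called 59 higher and 3 lower in that difference. Their summed level was 49200, 36500, 50700 and 38000 FPKM in iPHet 1 to 4 and 36600, 45600, 37800 and 47400 FPKM in iPKO 1 to 4. The high libraries were again iPHet 1 and 3 and iPKO 2 and 4.

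**Figure D3:**
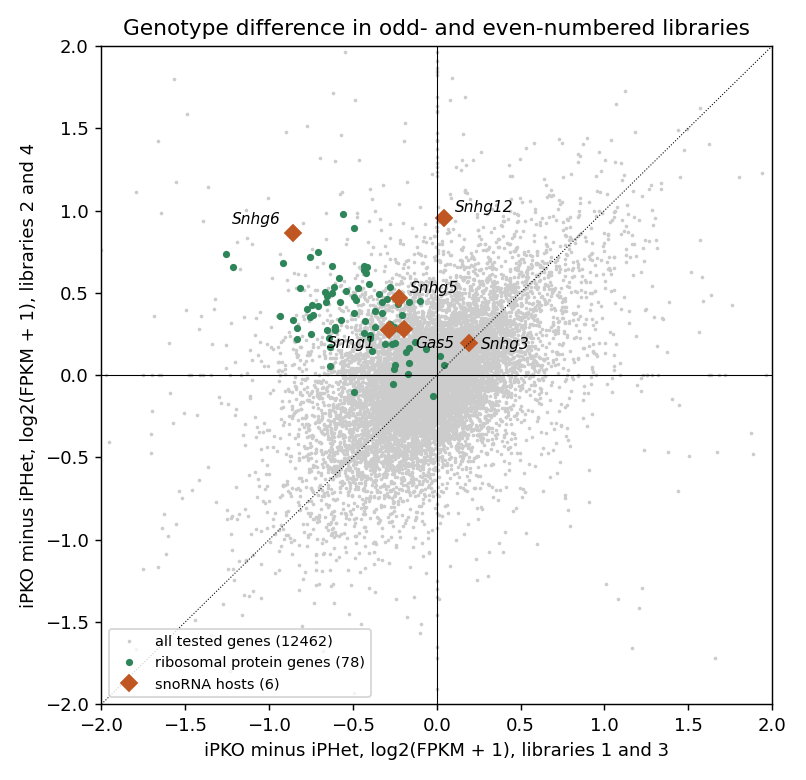
Difference between genotypes in libraries 1 and 3 (horizontal) against that in libraries 2 and 4 (vertical), in log2(FPKM + 1), for all 12462 tested genes (grey), ribosomal protein genes (green) and the hosts (orange). The dotted line marks equal differences, and 232 genes lie outside the axes. Snhg6, Snhg5, Snhg1 and Gas5 sit in the upper left with the ribosomal protein genes, Snhg12 above 0 on the vertical axis, and Snhg3 on the dotted line.

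Set against the mean of the ribosomal protein genes in each library, the hosts separated. That mean changed by -0.48 in odd and by 0.37 in even libraries on the log2 scale. Relative to it, Snhg12 was higher in iPKO by 0.52 in odd and by 0.59 in even libraries, so that its difference became nearly the same in both. Snhg6 still changed sign, at -0.38 in odd and 0.50 in even libraries, with an even minus odd difference of 0.88 in place of 1.72. Snhg5 stood at 0.26 and 0.10, and Gas5 at 0.28 and -0.09. Snhg1 stood at 0.19 and -0.10, and Snhg3 at 0.67 and -0.17. These relative values are a description, with no test. Across the 8 libraries, which hold pairs that lie close together, Pearson's r with the mean of the ribosomal protein genes was 0.951 for Snhg6, 0.869 for Snhg1 and 0.754 for Gas5. It was 0.562 for Snhg12, 0.556 for Snhg5 and 0.019 for Snhg3.

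**Figure D4:**
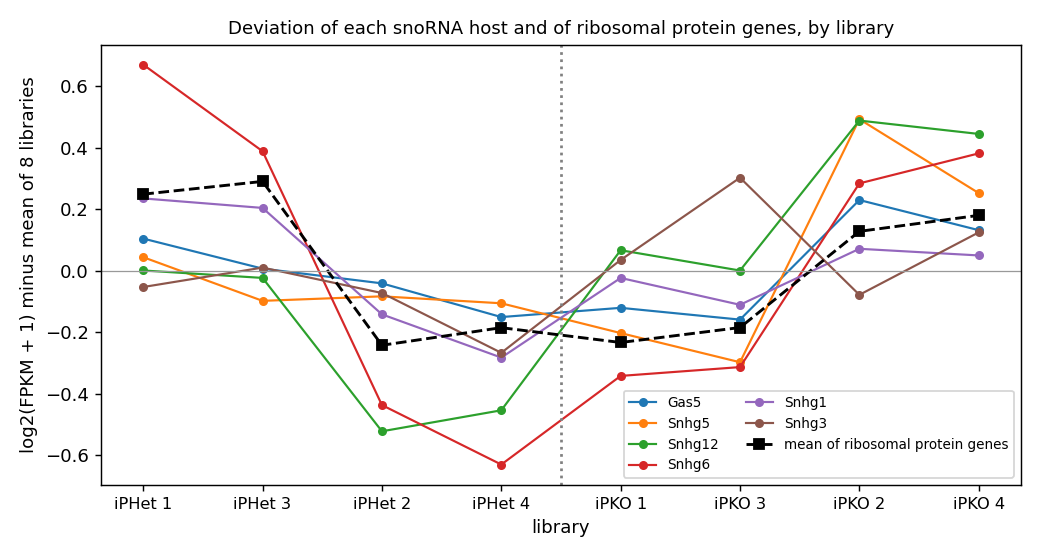
Deviation of each host from its mean over the 8 libraries in log2(FPKM + 1), with the mean of the ribosomal protein genes as a dashed line. Libraries are ordered by genotype and by odd and even number, and the lines only join points of a gene. The dashed line and that of Snhg6 are high in iPHet 1 and 3 and iPKO 2 and 4, and low in the other libraries.

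The genes whose profile over the 8 libraries was most like the average of the hosts were sought among 7956 genes of at least 5 FPKM. They were Brix1 (r = 0.991), Tbca (r = 0.986), Dhx16 (r = 0.985), Pdcd5 (r = 0.977) and Mrpl44 (r = 0.977). Brix1 encodes a factor of large ribosomal subunit assembly, Tbca a tubulin folding cofactor, Dhx16 a splicing helicase and Mrpl44 a protein of the mitochondrial ribosome. Brix1 averaged 75.0 FPKM in odd iPHet libraries and 64.5 FPKM in odd iPKO libraries, and 56.3 and 84.1 FPKM in the even ones. The median r was 0.771 over the ribosomal protein genes and -0.0261 over all candidates. With 8 libraries and so many candidates, high values of r are a ranking only.

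Other noncoding snoRNA hosts did not share one direction. Of 16 listed, 7 were matched by symbol and 6 tested, and 0 were called between genotypes by limma, with 2 at an unadjusted p under 0.05. Under the replicate block 2 were called, both higher. Dancr, with 30.5 ± 1.86 FPKM in the 4 controls against 34.0 ± 9.58 FPKM in the 4 knockouts (mean ± SD), resembled Gas5, with log2 changes of -0.28 in odd and 0.50 in even libraries. Snhg7 was level in odd libraries (0.01) and higher in even ones (0.76), like Snhg12. Meg3, an imprinted RNA, differed in the other sense, by 1.59 in odd and 0.45 in even libraries. Snhg11 was the mirror image of Dancr, at 0.27 in odd and -0.18 in even libraries. In the even minus odd difference 2 of the 6 were called higher and 2 lower by limma, against 15.6% and 12.9% of all tested genes. Snhg9 averaged 1.52 ± 1.19 FPKM (SD, n = 4) in iPHet and was listed at 0 in every iPKO library. The lowest iPHet library was also at 0, so the groups overlapped, and it was not called (limma adjusted p = 0.0677).

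Protein-coding snoRNA hosts release snoRNAs from introns of messenger RNAs that are translated, and 22 of those listed are themselves ribosomal protein genes. Between genotypes 4 of 47 tested were called higher and 1 lower, against 6.3% and 9.53% of all tested genes. The estimated correlation within pairs left 1 call, higher, averaged pairs left 0, and the replicate block called 5 higher and 5 lower. With no filter, with medians of ratios or without trend, 2 were higher and 1 lower. Prpf39, which encodes a U1 snRNP-associated splicing factor, rose from a control mean of 12.1 ± 0.665 (SD, n = 4) to 28.0 ± 1.35 FPKM (SD, n = 4), a log2 change of 1.15 (limma adjusted p = 0.000145). Eif4a2, a translation initiation helicase, rose from a control mean of 422 ± 24.6 to 549 ± 15.9 FPKM (SD over 4 libraries, limma adjusted p = 0.00895). Rabggtb and Sf3b3 also rose, and Rnf149 fell from 17.4 to 12.7 FPKM (limma adjusted p = 0.00616). These 5 differed in the same direction in odd and even libraries. In the even minus odd difference, 29 of 47 were called higher and 2 lower, against 15.6% and 12.9% of all tested genes.

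The proteins that package snoRNAs, such as those of box C/D and H/ACA particles, had 1 of 20 tested genes called lower and 0 higher, where 15.8% of all tested genes were called in either direction. At an unadjusted p under 0.05 there were 5, and the call was lost (0) with the estimated correlation within pairs. That gene was Znhit3, a box C/D assembly factor, at 35.8 ± 3.54 FPKM in the 4 controls against 28.9 ± 1.12 FPKM in the 4 knockouts (mean ± SD) (limma adjusted p = 0.0371). The replicate block called 5, all lower. Nop56, a core box C/D protein and itself a snoRNA host, was at 219 ± 7.08 and 192 ± 5.80 FPKM (SD, n = 4 each) and did not pass (limma adjusted p = 0.0546). The median log2 change was -0.15 over all libraries, beside -0.04 for all genes, with -0.27 in odd and 0.02 in even libraries.

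The machinery of NMD and the exon junction complex was called lower for 5 and higher for 1 of 18 tested genes, against 9.53% and 6.3% of all genes. With the estimated correlation within pairs, or with pairs averaged, 0 were called, and with 1 library left out 1 to 3. Rbm8a, which encodes the junction protein Y14, fell from a control mean of 23.0 ± 1.48 (SD, n = 4) to 15.8 ± 2.38 FPKM (SD, n = 4), a log2 change of -0.52 (limma adjusted p = 0.0146). Nbas fell from 4.29 to 3.27 FPKM, Smg8 from 14.7 to 11.9 FPKM, Smg6, the NMD endonuclease, from 15.6 to 13.2 FPKM and the helicase gene Dhx34 from 4.58 to 3.46 FPKM. Magohb, a Mago partner of Y14, rose from 5.57 to 7.07 FPKM. The list's median log2 change was -0.01. Under quantile normalization 1 was called in each direction.

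Messenger RNAs known to be sensitive to NMD were listed for comparison with the hosts, and 2 of 27 were called higher and 3 lower, near the 6.3% and 9.53% of all tested genes. With the estimated correlation within pairs, or with pairs averaged, 0 were called. The splicing factor genes Srsf7 (75.6 to 93.6 FPKM) and Tra2b (107 to 134 FPKM) rose. Atf4, which encodes a stress-response transcription factor, fell from a control mean of 282 ± 3.23 (SD, n = 4) to 182 ± 40.7 FPKM (SD, n = 4) (limma adjusted p = 0.021), and Herpud1 and Srsf6 fell too. The list's median log2 change was 0.01, so that neither it nor that of the hosts lay far from the median of all genes. The values per gene sum all transcripts, and a decay-sensitive isoform cannot be told apart from the others of its gene.

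Genes beside or across the hosts varied in direction. Slc3a2, an amino acid transporter subunit whose locus ends 126 bases from Snhg1, fell from a control mean of 80.4 ± 3.53 (SD, n = 4) to 62.9 ± 6.34 FPKM (SD, n = 4) (limma adjusted p = 0.0217), with iPKO lower in both odd and even libraries. Trnau1ap, 738 bases from Snhg12, fell from a control mean of 25.9 ± 4.02 to 17.5 ± 1.63 FPKM (SD over 4 libraries, limma adjusted p = 0.019), while the values of Snhg12 lay higher in iPKO. The even minus odd difference of Trnau1ap was 0.54 and called higher (limma adjusted p = 0.009), as were those of Gm17300 across Snhg3 (0.55, limma adjusted p = 0.00284) and of Syncrip beside Snhg5 (0.26, limma adjusted p = 0.033). Rab42, on the other side of Snhg12, was at 1.56 FPKM in controls and 2.56 FPKM in knockouts, a log2 change of 0.47 (limma adjusted p = 0.0797) close to that of Snhg12. Its difference was 0.75 in odd and 0.19 in even libraries, the reverse order of Snhg12. Mcmdc2, which overlaps Snhg6 by 127 bases on the opposite strand, rose from 0.567 to 1.42 FPKM (limma adjusted p = 0.026), higher in iPKO in both sets. Zbtb37, which overlaps Gas5 by 428 bases, was at 2.03 and 1.78 FPKM and was not called.

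Snhg3 is the host whose value is least certain. Of its 986 annotated exon bases, 71.5% are shared with the antisense gene Gm17300 and 13.7% with Rcc1, on the same strand. Rcc1, which encodes a nucleotide exchange factor of Ran, averaged 74.4 FPKM in controls and 74.2 FPKM in knockouts, far above Snhg3 at 3.07 and 3.66 FPKM. Gm17300 averaged 16.4 and 16.9 FPKM. Whether counting used strand is not given here, and reads shared by these genes cannot be told apart.

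The snoRNAs themselves were poorly seen. Of 26 small RNA genes that lie inside the 6 loci, 22 stayed below 0.1 FPKM in all libraries. Snora73b, carried by Snhg3, was at 13.7, 13.0, 13.4 and 10.8 FPKM in iPHet and 10.7, 22.9, 8.67 and 16.0 FPKM in iPKO. The odd iPKO libraries lay below the controls and 1 of them, iPKO 3, was the lowest, a split that Snhg3 itself did not show. Snora73a was at 8.08 ± 0.675 FPKM in the 4 controls against 11.2 ± 2.07 FPKM in the 4 knockouts (mean ± SD). Snora16a, within Snhg12, was at 21.6 and 9.89 FPKM in iPHet 1 and 3 and listed at 0 in iPHet 2 and 4 and in 3 iPKO libraries. Values of RNAs this short can be failed estimates, and reads of the host that cross the snoRNA can enter them.

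The deposited confidence bounds could not serve as the error of these values. The FPKM lay outside its own deposited bounds for 2 of the 48 host values, Snhg1 in iPHet 4 and Snhg5 in iPHet 1, or 4.17%, against 29.7% of the values of all tested genes of at least 5 FPKM. The status was OK for all 48. With 4 libraries of each genotype, the number of libraries limits the precision of every comparison.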

How the data were processed

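RNA-seq of total RNA (Illumina TruSeq, paired reads of 100 bases) was analysed in 4 iPHet and 4 iPKO libraries. Per the file headers, the authors deposited FPKM for each gene and library, beside bounds and a status for each value. Trimmomatic and mm10 are named in the submitters' processing notes. Aligner, quantifier, versions and strand: not given in the sources used here. Each file had 39013 rows for 38991 identifiers, and 19 identifiers with several loci were summed. The test was limma 3.58.1 (R 4.3.3, files read with data.table, version 1.17.8) with an intensity trend on log2(FPKM + 1), over 12462 genes whose mean reached 1 FPKM in iPHet or in iPKO. Calls had a Benjamini-Hochberg adjusted p under 0.05 over all tested genes. Fold changes are on the log2(FPKM + 1) scale and ratios are of mean FPKM. Permutation tests were exact and two-sided. The fits were tested on simulated data, each with 200 changed genes. The simulated libraries varied independently, unlike the pairs here (estimated correlation 0.839), so that check does not cover the closeness of the pairs. Members, gene lists and tests were chosen with earlier results of these data known. From each list, up to 6 genes with the smallest p were eligible to be named, and the 5 genes most like the hosts. List entries without a matching symbol in the files were not analysed here.

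Replicate numbers were checked for pairing over all tested genes. Deviations from the group means correlated at 0.104 to 0.204 between same-numbered libraries of the genotypes, at 0.077 to 0.124 between other libraries of the same odd or even set, and at -0.205 to -0.0579 between sets. All same-numbered pairs were over 0.1, and the replicate block took the numbers as pairing the libraries, which the labels do not state. The ranges for same-numbered and other same-set libraries overlap, with iPHet 2 and iPKO 4 at 0.124. The data thus separate odd from even sets and do not establish pairing by number, which the block assumes. Alternatives changed the pseudocount, filter, normalization, variance model, block and library set. Promoter sequences came from RefSeq (GRCm38.p6) and transcripts from GENCODE vM21.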

Additional observations from a re-analysis of the deposited data

Results flagged for a closer look

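The difference between iPKO and iPHet was not the same in even-numbered as in odd-numbered libraries for 5 hosts. The even minus odd difference on the log2 scale was 0.47 for Gas5, 0.56 for Snhg1, 0.69 for Snhg5, 1.72 for Snhg6 and 0.91 for Snhg12, each with a limma adjusted p under 0.05 for an interaction term. The summed FPKM of ribosomal protein genes moved with it, at 49200 and 50700 in iPHet 1 and 3 and 45600 and 47400 in iPKO 2 and 4, against 36500 to 38000 in the other libraries. The part of any other difference between these sets of libraries was not tested. Over all tested genes, 15.6% were called higher in the even minus odd difference and 12.9% lower. The interaction term was chosen after the values were seen, and its p-values rest on the spread inside pairs of closely similar libraries.

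Snhg5 in iPHet had 1 value apart from the rest. Library 1 stood at 90.4 FPKM and the others at 81.4 to 82.7 FPKM, a gap of 0.856 of the group's range. Chance flags about 1 in 20 groups of this size. Without that library the log2 change was 0.16 (limma adjusted p = 0.633).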

How the results depend on the processing

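Alternatives left 0 hosts called between genotypes except under quantile normalization (1, Snhg12 at 0.54), in odd-numbered libraries alone (3, all lower) and in even-numbered libraries alone (5, all higher). In odd libraries alone the log2 change was -0.20 for Gas5, -0.29 for Snhg1, -0.22 for Snhg5 and -0.86 for Snhg6, and in even libraries alone 0.28, 0.27, 0.47 and 0.87, with 0.95 for Snhg12. Of all genes tested in each set, 27.3% were called lower in odd libraries alone and 17.7% higher in even libraries alone. Snhg1, at -0.01 over all libraries, was 0.04 under quantile normalization and under scaling by medians of ratios. Leaving out 1 library gave -0.03 to 0.10 for Gas5, -0.10 to 0.07 for Snhg1, -0.02 to 0.24 for Snhg5 and -0.20 to 0.23 for Snhg6, all uncalled, with Snhg5 reversed only without iPKO 2. Snhg12 stayed uncalled at 0.41 to 0.58 (limma adjusted p from 0.0746 to 0.17). Prmt5 was -2.13 with libraries 1 and 3, and 2 and 4, averaged, but uncalled (limma adjusted p = 0.191, and 0.0809 with an odd/even term), in fits with few degrees of freedom.

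The even minus odd difference of Gas5 was 0.24 and uncalled under quantile normalization. That of Snhg3 was -0.03 under quantile normalization, -0.02 under medians of ratios and -0.13 to 0.14 with 1 library left out. Over all genes, leaving out 1 library gave 2186 to 2647 calls of it.

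The number of genes called between genotypes, 1973, was 3427 with the replicate block, which uses the pairing by number, 4729 with an odd/even term, 5700 in odd and 4932 in even libraries alone, and 1264 to 1416 with 1 library left out. It was 7 with pairs averaged, 6 with pairs averaged and an odd/even term, and 52 with an estimated correlation within pairs. The block changed no call of a host.

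For the lists, the other noncoding hosts (0 called) had 2 with the block, 3 with an odd/even term, 3 and 6 in odd and even libraries alone, and 0 to 1 with 1 library left out. Protein-coding hosts (5) had 3 with no filter, by medians of ratios and without trend, 10 with the block, 12 with an odd/even term, 36 and 35 in odd and even libraries, 0 in both fits of averaged pairs, 1 with the estimated correlation and 3 to 4 with 1 library left out. The snoRNP proteins (1) had 2 at a minimum of 5 FPKM, 0 by quantile normalization, 5 with the block, 8 with an odd/even term, 15 and 7 in odd and even libraries, 0 with pairs averaged or correlated and 0 to 1 with 1 left out. The NMD factors (6) had 3 at a minimum of 5 FPKM and by medians of ratios, 2 by quantile normalization, 0 with pairs averaged or correlated and 1 to 3 with 1 left out. The NMD-sensitive messenger RNAs (5) had 3 by medians of ratios, 9 with an odd/even term, 16 and 11 in odd and even libraries, 0 with pairs averaged or correlated and 1 to 5 with 1 left out. The ribosomal protein genes (0) had 1 by quantile normalization, 1 with an odd/even term, and 70 and 62 in odd and even libraries. The cause of these shifts was not tested. A minimum of 5 FPKM left Snhg3 with no value, and the unknown depth limits what can be said of low values such as those of Snhg3.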
